A study of Mus musculus with 4 samples.

Results

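The 10 genes Ifit1, Ifit2, Ifit3, Isg15, Usp18, Oas1a, Oasl2, Rsad2, Mx2 and Ifi44 are antiviral effectors and regulators that type I interferon induces, and their transcript levels were followed in mouse colonic mucosa. They were taken by gene symbol from the count files, and all 10 were found among the 19308 genes listed for every library. RNA sequencing was done on total RNA of 2 libraries from Itch KO mice (Itch-/-), which lack the E3 ubiquitin ligase ITCH and whose mucosa the protocol describes as inflamed, and of 2 libraries from wild-type (WT) C57BL/6 mice. The labels give no age, sex or strain for the knockout mice, do not say how the Itch allele was made or whether replicates came from separate animals, and tag the state of all 4 samples as inflammation. Unless the replicates were separate animals, the p-values speak only to the variation among these 4 libraries.

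Type I interferons, the alpha and beta families, bind the receptor chains IFNAR1 and IFNAR2, and the kinases JAK1 and TYK2 then phosphorylate transcription factors of the STAT family, STAT2 among them. With IRF9 these form the complex ISGF3, which binds interferon-stimulated response elements in the promoters of genes such as those studied here. Type III interferon uses another receptor, found mainly on epithelia such as that of the gut, and reaches the same complex. Interferon-gamma acts mainly at other sequences, gamma-activated sites, and its targets overlap in part with those of type I interferon.

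The sequences below show where letters of that element lie before the starts of the genes in which it was found. RefSeq windows (GRCm38.p6) of 250 bases before to 50 bases after a start were held for 8 of the 10 genes, all but Usp18 and Mx2. The element was searched as GAAA, any 2 bases and GAAA again, on both strands (TTTC, any 2 bases and TTTC when read from the other), with overlapping matches counted separately. Of the 8 genes, 5 had at least 1 match, against 3.44% of all 32851 windows, and Ifit2, Oasl2 and Ifi44 had none in these letters. The gamma-activated site TTCNNNGAA was matched in 2 of the 8, Ifit2 and Oas1a, against 8.30% of all windows. A match is a description of the letters and not evidence that a factor binds. The stretches are printed 5′ to 3′ on the gene's strand, with matched letters in capitals. They lie at chr4:156200850-156200921 (Isg15, minus strand), chr12:26456538-26456597 (Rsad2, minus), chr19:34640760-34640838 (Ifit1, plus), chr19:34583348-34583441 (Ifit3, plus) and chr5:120907526-120907570 (Oas1a, minus).
Isg15: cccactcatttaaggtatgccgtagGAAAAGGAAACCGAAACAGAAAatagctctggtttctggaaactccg
Rsad2: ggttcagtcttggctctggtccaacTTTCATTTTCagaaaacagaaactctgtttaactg
Ifit1: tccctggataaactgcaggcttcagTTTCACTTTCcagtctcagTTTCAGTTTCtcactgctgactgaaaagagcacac
Ifit3: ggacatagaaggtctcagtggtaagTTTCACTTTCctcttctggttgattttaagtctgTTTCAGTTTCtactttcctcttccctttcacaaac
Oas1a: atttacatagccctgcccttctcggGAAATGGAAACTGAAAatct
Isg15 held 3 overlapping matches, whose first bases lie 66 to 78 bases before its start. Ifit1 and Ifit3 held 2 separate ones each, Oas1a 2 overlapping ones and Rsad2 1.

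These letters also show which genes have near-identical copies. The 94 bases shown for Ifit3 are the same, letter for letter, upstream of its neighbour Ifit3b, and the first 43 of the 45 bases shown for Oas1a are the same upstream of Oas1g. Within the annotated transcripts, 51.2% of the 50-base words of Ifit3 also occur in Ifit3b and 57.6% of those of Oas1a in Oas1g, so reads of these pairs may have been dropped or split and their levels are uncertain. The share was 7.14% for Ifit1, nearly all with Ifit1bl2, and at most 4.38% for the other 7 genes. Exons of Usp18 overlap those of Gm44148 on the opposite strand over 4.44% of their bases, and the strand setting of the counting is not given in the sources used here.

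Before the results, the libraries differed in ways that bear on them. The 19308 genes held 8181193 and 9463759 counts in Itch KO replicates 1 and 2 and 9674531 and 12199709 in WT replicates 1 and 2. Itch itself (ENSMUSG00000027598) was at 11.9 and 13.4 CPM in the Itch KO libraries and 204 and 183 CPM in the WT libraries, where CPM is the count scaled to library size with edgeR's TMM factors. All 9 epithelial and all 9 colonocyte markers had counts in every library. WT replicate 1 stood apart in squamous epithelium markers, whose 9 genes summed to 27.6 and 34.8 CPM in Itch KO and to 816 and 14.2 CPM in WT. The 5 general leukocyte markers summed to 657 and 807 CPM in Itch KO against 271 and 227 in WT. In bulk mucosa fewer cells of a type and less RNA per cell cannot be told apart. In the 1000 most densely covered genes the counts followed exonic length closely (rank correlation 0.949, against 0.420 over 16783 genes). These genes were picked by count per length, which by itself raises that correlation, so it cannot tell whether high counts were limited. It is a description across genes that share libraries. Oas1a and Isg15 lay at percentiles 94.5 and 94.2 of read density, in the densest decile, where log2 fold changes had an interquartile range of 0.31, against 1.58 in the sparsest. Sparse genes rest on fewer counts, and the part of read density in the fold changes of Oas1a and Isg15 was not tested.

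Taken as a group, the 10 antiviral genes stood modestly higher in Itch KO mucosa, and no member passed the test across all genes. Their log2 fold changes (Itch KO over WT) had a median of 0.38 and ran from -0.19 to 1.37, beside a median of 0.0085 over the 16956 genes tested. For 6 members both Itch KO libraries lay above both WT libraries, and for the other 4 the groups overlapped. That separation held for 30.0% of all genes tested. With edgeR's quasi-likelihood test 0 members had a Benjamini-Hochberg adjusted p below 0.05, as for 0.0% of all genes. Itch itself, the targeted gene, had the smallest edgeR adjusted p of all genes, 0.092, and was not called either. At an unadjusted p below 0.05, 4 members were higher (Usp18, Isg15, Oasl2 and Ifit2) and 0 lower, against 10.2% of all genes higher and 9.52% lower. DESeq2 called 1 member, Usp18, as higher, against 5.59% of all genes higher and 5.0% lower, and limma voom called 0 genes. Without Itch KO replicate 2 or without WT replicate 1 the unadjusted count was 2, and without WT replicate 2 it was 1, Usp18. Without Itch KO replicate 1 the median was 0.59.

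**Figure D1:**
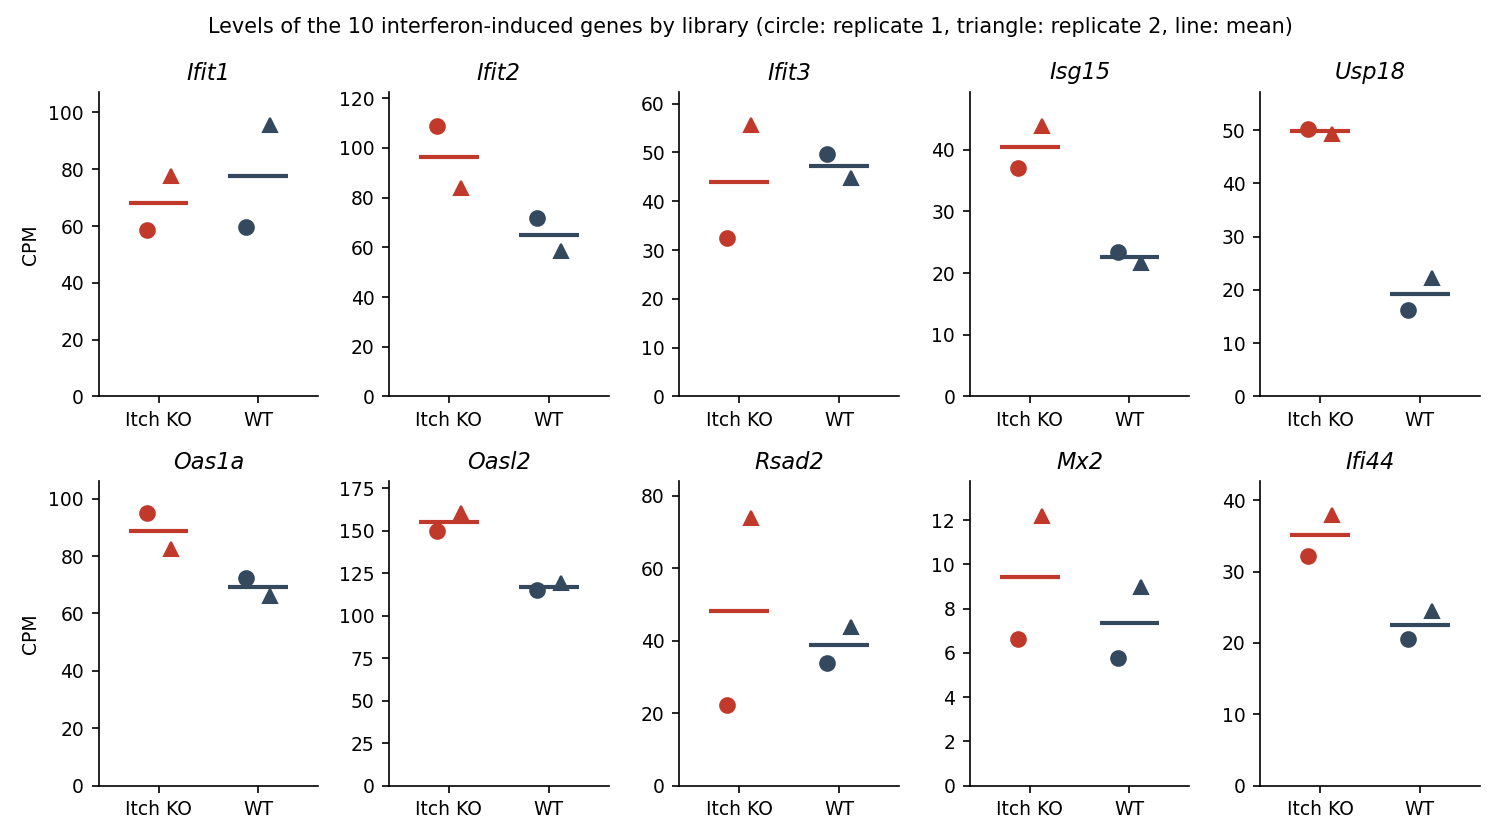
CPM of each gene in each library, with Itch KO at the left and WT at the right of each panel, replicate 1 as circles, replicate 2 as triangles and the group mean as a line (n = 2 each). Usp18, Isg15, Ifit2, Oasl2, Oas1a and Ifi44 show no overlap between groups, while Ifit1, Ifit3, Rsad2 and Mx2 overlap.

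Isg15 and Usp18 stood furthest apart between the groups. Isg15 (ENSMUSG00000035692, GRCm38 chromosome 4, 156199424 to 156200818, minus strand) encodes a ubiquitin-like protein that is attached to other proteins. It was at 37.1 and 43.8 CPM in the Itch KO libraries and at 23.5 and 21.7 CPM in the WT libraries. Both knockout libraries lay well above both WT libraries, and the gap exceeded the spread within each group. Means were 40.4 ± 4.73 and 22.6 ± 1.27 CPM (SD, n = 2 each), with a log2 fold change of 0.84, a standard error of 0.23 and an edgeR adjusted p of 0.180. Usp18 (ENSMUSG00000030107, chromosome 6, 121245906 to 121270917, plus strand) encodes the protease that removes ISG15 and that also dampens signalling at IFNAR2. It was at 50.3 and 49.3 CPM in Itch KO and at 16.2 and 22.2 CPM in WT. The knockout libraries were nearly equal, while the WT libraries differed 1.37-fold. The log2 fold change was 1.37 (standard error 0.25, 95% interval 0.70 to 2.04), a 2.58-fold higher level, with an adjusted p of 0.130 in edgeR and 0.00262 in DESeq2.

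The enzymes that attach ISG15 were given by a list of 4 genes. Ube2l6, the conjugating enzyme, was at 61.2 and 71.3 CPM in Itch KO against 39.8 and 38.6 in WT (log2 fold change 0.76, edgeR adjusted p = 0.138). Uba7, the activating enzyme, was at 184 and 164 against 123 and 145 CPM, and Herc6, the main ISG15 ligase of the mouse, at 57.8 and 91.6 against 50.2 and 44.3 CPM. In these 3 genes the groups did not overlap. Trim25, another ligase, overlapped at 250 and 218 CPM in Itch KO and 238 and 221 CPM in WT. Of the 4 genes 1 had an unadjusted p below 0.05 and 0 passed the adjusted test, with a median log2 fold change of 0.52. Among all genes tested, 30.0% were higher in both Itch KO libraries and 10.2% were higher at that p.

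Oas1a and Oasl2 belong to the oligoadenylate synthetases, which sense double-stranded RNA and make oligoadenylates that act as antiviral messengers. Oasl2 (ENSMUSG00000029561, chromosome 5, 114896936 to 114912234, plus strand) was at 150 and 160 CPM in Itch KO and at 115 and 119 CPM in WT. Replicates lay close together in both groups and the groups did not overlap. Its log2 fold change was 0.41 (95% interval 0.09 to 0.72, edgeR adjusted p = 0.194). Oas1a (ENSMUSG00000052776, chromosome 5, 120896256 to 120907521, minus strand) was at 94.98 and 82.5 CPM in Itch KO against 72.3 and 66.1 CPM in WT. The groups did not overlap, and the interval of the difference, -0.02 to 0.74 around a log2 fold change of 0.36, included 0. Oas1g, its near copy, had similar values, at 82.3 and 65.4 CPM in Itch KO and 60.2 and 53.6 CPM in WT.

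Among the other synthetase genes Oas2 had the largest difference. It was at 67.0 and 108 CPM in Itch KO and at 27.8 and 36.0 CPM in WT, a log2 fold change of 1.46 (edgeR adjusted p = 0.138, DESeq2 adjusted p = 0.00228). Oas1b, a gene of flavivirus resistance in mice, was at 23.1 and 31.8 against 13.5 and 14.8 CPM, and Oas3 at 73.1 and 114 against 43.8 and 67.3 CPM. In all 3 the groups did not overlap. Over the 11 tested relatives of the antiviral genes, IFIT and MX relatives included, 5 were higher in both Itch KO libraries and 1 lower. The shares over all genes tested were 30.0% higher and 26.0% lower. The median log2 fold change of these 11 relatives was 0.09. Oasl1 was at 83.4 and 73.5 CPM in Itch KO and 79.6 and 67.5 CPM in WT, Oas1c at 17.0 and 17.5 against 15.2 and 17.4, and Oas1h at 1.97 and 1.86 against 1.39 and 2.93. These 3 overlapped between groups. Oas1d had 4 and 4 counts in Itch KO and 0 and 27 in WT, Oas1e and Oas1f had at most 1 count in any library, and none of them was tested. Ifi44l, a relative of Ifi44 outside the genes listed for WT replicate 1, had 0 and 0 counts in Itch KO and 1 in WT replicate 2.

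The IFIT proteins bind viral RNA that lacks the host's cap modifications or form complexes that do so, and their 3 genes did not share 1 direction. Ifit2 (ENSMUSG00000045932, chromosome 19, 34550694 to 34576419, plus strand) was at 109 and 83.8 CPM in Itch KO and at 71.8 and 58.5 CPM in WT. The groups did not overlap, and the log2 fold change was 0.56 (95% interval 0.02 to 1.1, edgeR adjusted p = 0.242). Ifit1 (ENSMUSG00000034459, chromosome 19, 34640871 to 34650009, plus strand) was at 58.6 and 77.5 CPM in Itch KO and at 59.7 and 95.6 CPM in WT. The highest value was that of WT replicate 2, and the replicates differed 1.32-fold in Itch KO and 1.6-fold in WT. Its log2 fold change of -0.19 had an interval of -0.98 to 0.60, and without WT replicate 2 it was 0.19. Ifit3 (ENSMUSG00000074896, chromosome 19, 34583531 to 34588731, plus strand) was at 32.4 and 55.6 CPM in Itch KO and at 49.6 and 44.7 CPM in WT. The WT values lay between the knockout values, and the log2 fold change was -0.10 (interval -0.93 to 0.73), and became 0.24 without Itch KO replicate 1 and 0.0004 with WT replicate 1 left out.

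Of 3 neighbours of the IFIT genes on chromosome 19, 2 overlapped between the groups and 1, Ifit1bl2, was lower in both Itch KO libraries. Ifit3b was at 25.3 and 37.4 CPM in Itch KO and at 39.7 and 26.6 CPM in WT, and Ifit1bl1 at 170 and 87.6 against 170 and 98.1 CPM. These 2 overlapped. Ifit1bl2 was at 31.8 and 29.3 CPM in Itch KO and at 37.2 and 97.4 CPM in WT, a log2 fold change of -1.14 with an interval of -2.48 to 0.20. Its high value, like that of Ifit1, was in WT replicate 2.

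Rsad2, Mx2 and Ifi44 differed in how far the replicates agreed. Ifi44 (ENSMUSG00000028037, chromosome 3, 151730922 to 151749960, minus strand), which encodes an interferon-induced cytoplasmic protein, was at 32.2 and 37.9 CPM in Itch KO and at 20.6 and 24.5 CPM in WT. The groups did not overlap, and the log2 fold change was 0.64 (interval -0.04 to 1.31, edgeR adjusted p = 0.271). Rsad2 (ENSMUSG00000020641, chromosome 12, 26442746 to 26456452, minus strand) encodes viperin, an enzyme whose nucleotide product stops viral RNA synthesis. It was at 22.4 and 73.7 CPM in Itch KO and at 33.7 and 43.8 CPM in WT. The knockout libraries held both the lowest and the highest value and differed 3.30-fold, the widest replicate gap among the 10 genes. Its log2 fold change was 0.31 (interval -1.32 to 1.94), 0.93 without Itch KO replicate 1 and -0.78 without Itch KO replicate 2.

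Mx2 (ENSMUSG00000023341, chromosome 16, 97535308 to 97560900, plus strand) encodes a dynamin-like GTPase that blocks viruses, and the GENCODE M21 annotation lists the gene as a polymorphic pseudogene. Most inbred laboratory mice are known to carry defective Mx1 and Mx2 alleles. Mx2 was the lowest of the 10 genes, at 6.64 and 12.2 CPM in Itch KO and 5.76 and 8.96 CPM in WT. The groups overlapped, and the log2 fold change was 0.35 (interval -1.14 to 1.85), 0.10 without WT replicate 1 and -0.14 without Itch KO replicate 2. Mx1, its relative, was at 29.1 and 27.8 CPM in Itch KO against 19.7 and 20.9 CPM in WT, without overlap and with a log2 fold change of 0.48 (edgeR adjusted p = 0.359).

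**Figure D2:**
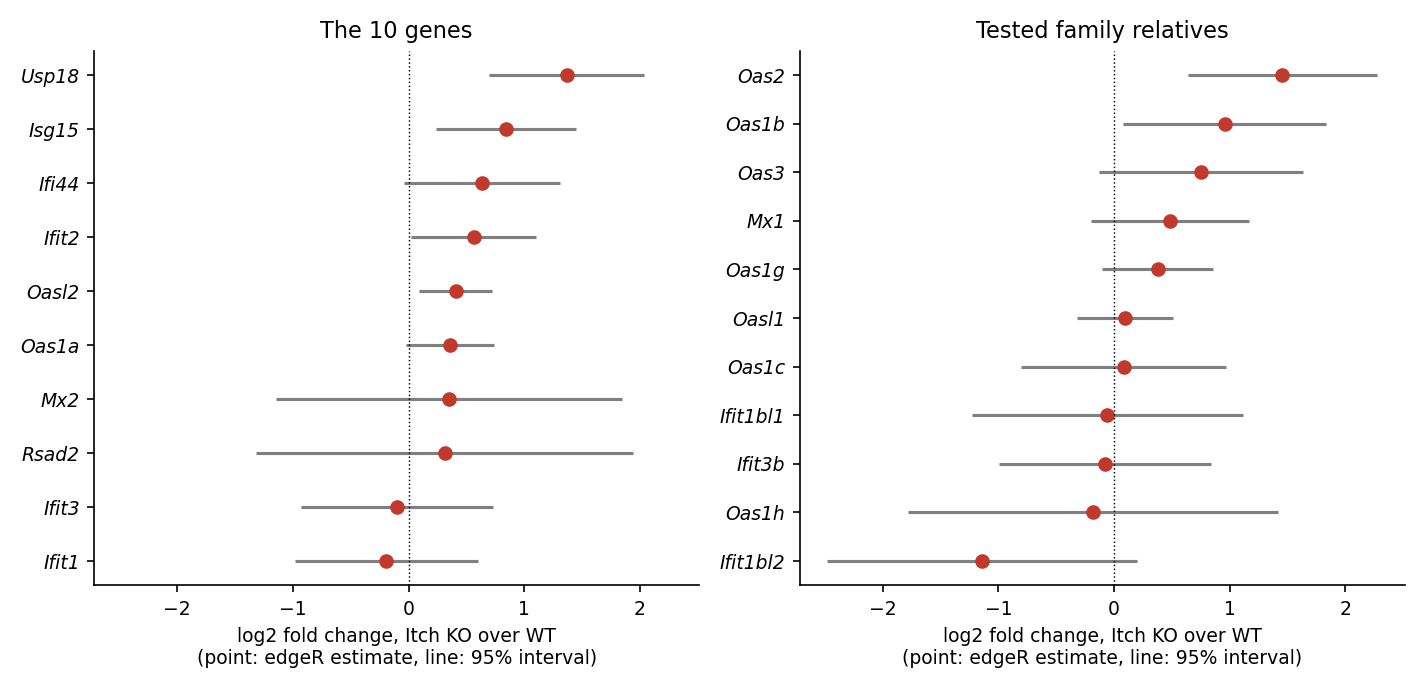
Log2 fold change of Itch KO over WT for the 10 genes (left) and for their 11 tested family relatives (right), each with its 95% interval from edgeR. The intervals of Usp18, Isg15, Ifit2, Oasl2, Oas2 and Oas1b lie above 0, without adjustment for the number of genes. Those of Rsad2, Mx2, Ifit1bl1 and Oas1h reach from below -1 to above 1.

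**Figure D3:**
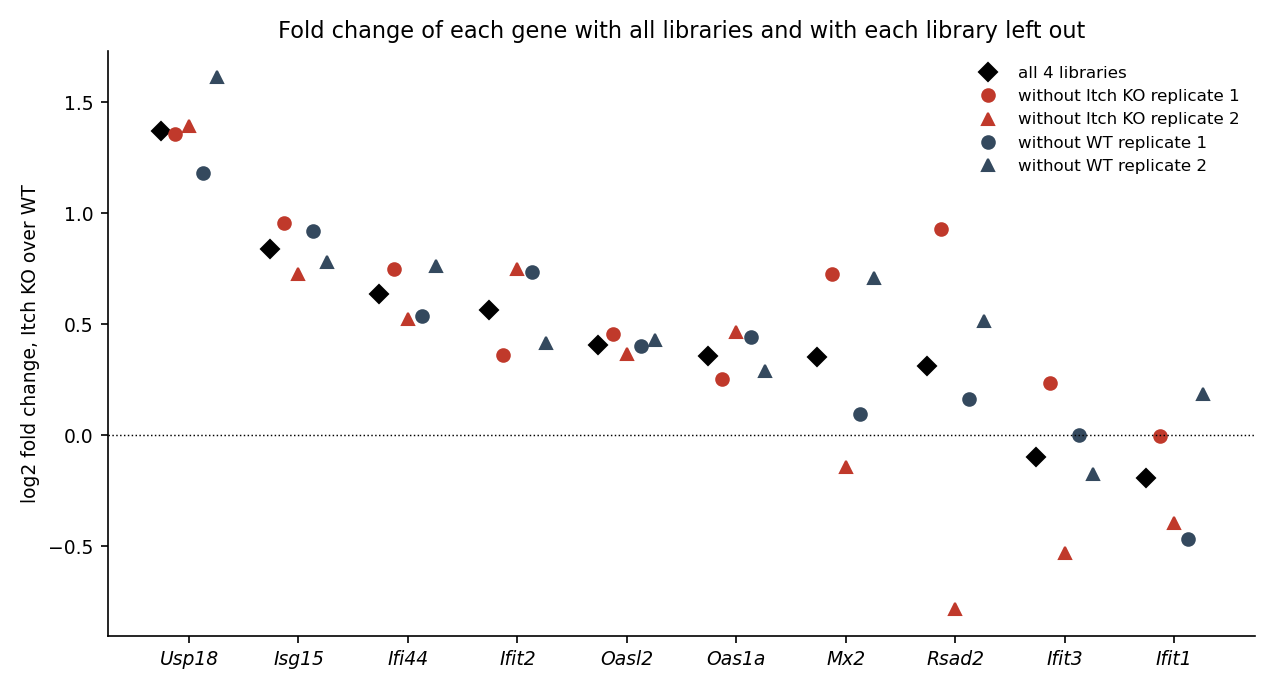
Log2 fold change of each of the 10 genes with all 4 libraries (diamonds) and with each library left out in turn (circles for replicate 1, triangles for replicate 2). Usp18 stays between 1.18 and 1.61 and Oasl2 between 0.37 and 0.46, whereas Rsad2 runs from -0.78 to 0.93 and Mx2, Ifit3 and Ifit1 also lie on both sides of 0.

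Levels compared between genes per kilobase of exon showed how the 10 genes were ordered. Oas1a was at 50.4 and 43.8 CPM per kb in Itch KO and 38.4 and 35.1 in WT, and Isg15 at 49.1 and 57.9 against 31.0 and 28.7. By the mean over the 4 libraries, 41.9 and 41.7 CPM per kb, these levels were the highest of the 10 genes. Ifit1, at 22.1 and 29.2 CPM per kb in Itch KO and 22.5 and 36.0 in WT, was above both in WT replicate 2. Ifit1, Ifit3, Oasl2 and Ifit2 followed in this order with means over the 4 libraries of 27.4, 26.1, 21.4 and 20.6 CPM per kb, then Usp18 with 12.4, Rsad2 with 10.01, Ifi44 with 4.70 and Mx2 with 2.32. For each pair of neighbours in this order the ranges over the libraries overlapped. Compared within each library, Ifit2 lay above Usp18 and Ifi44 above Mx2 every time. The other neighbouring pairs changed order between libraries. The level of Oas1a and Ifit3 per length is uncertain because of their near copies.

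Of the receptor, kinase and ISGF3 genes given here, the receptor chain Ifnar2 had the largest log2 fold change. Stat2 was at 157 and 165 CPM in Itch KO against 126 and 130 CPM in WT, Irf9 at 123 and 121 against 99.9 and 103, and Irf7, which amplifies interferon production, at 133 and 119 against 115 and 116. In all 3 of these genes the groups did not overlap, and 1 of them, Stat2, had an unadjusted p below 0.05. The shares over all genes tested were 30.0% for that separation and 10.2% for a higher level at that p. Ifnar2 was at 50.6 and 95.4 CPM in Itch KO and at 29.8 and 28.1 CPM in WT (log2 fold change 1.34, DESeq2 adjusted p = 0.0194). Its partner Ifnar1 was at 111 and 144 against 103 and 116 CPM, and overlapped. Ifnlr1, the chain specific to type III interferon, was at 67.8 and 41.6 CPM in Itch KO and 79.3 and 62.0 CPM in WT, also with overlap.

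The other receptor chains and kinases differed little. Il10rb was at 72.2 and 70.2 CPM in Itch KO and 68.2 and 61.2 CPM in WT, Ifngr1 at 166 and 136 against 163 and 127, and Ifngr2 at 147 and 127 against 131 and 115. Jak1 was at 224 and 220 CPM in Itch KO and 232 and 199 CPM in WT, Jak2 at 180 and 186 against 207 and 164, and Tyk2 at 123 and 102 against 120 and 124. Over the 9 receptor and kinase genes the median log2 fold change was 0.06. At an unadjusted p below 0.05, 1 gene, Ifnar2, was higher, against 10.2% of all genes tested. Of the interferon ligands in the shared gene list there was 1, Ifng, at 7.62 and 45.5 CPM in Itch KO and 0.960 and 0.326 CPM in WT (log2 fold change 5.38, edgeR adjusted p = 0.155, DESeq2 adjusted p = 2.18e-05). Interferon-gamma is the type II ligand, and its transcript differed 5.98-fold between the knockout libraries.

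Sensors of nucleic acids, their adaptors and kinases had a median log2 fold change of 0.14 over 20 genes. At an unadjusted p below 0.05, 5 were higher and none lower, against 10.2% and 9.52% of all genes tested. Tlr9, the endosomal sensor of DNA, was at 15.7 and 26.0 CPM in Itch KO and at 4.8 and 3.59 CPM in WT, and Irf5 at 63.4 and 94.2 against 30.7 and 17.0 CPM. Tmem173, which encodes the adaptor STING, was at 102 and 122 CPM in Itch KO and 46.2 and 24.9 CPM in WT. These 3 had the largest log2 fold changes of the list, 2.32, 1.73 and 1.66, and DESeq2 called all 3.

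Other genes that type I interferon induces resembled the 10 members in their median but spread more widely. Of 50 genes, 32 were higher in both Itch KO libraries and 6 lower, against 30.0% and 26.0% of all genes tested. At an unadjusted p below 0.05, 19 were higher and 1 lower, against 10.2% and 9.52%. The median log2 fold change was 0.36. Slfn1, a regulator of lymphocyte growth, was at 39.9 and 89.2 CPM in Itch KO and at 9.71 and 3.02 CPM in WT. Ms4a4c was at 43.7 and 71.6 against 10.2 and 2.85 CPM, and Slfn8 at 30.0 and 77.2 against 12.4 and 10.6 CPM. These 3 had the largest log2 fold changes of the list, 3.35, 3.15 and 2.22. Ddx60, a helicase that aids RNA sensing, was the lowest, at 46.9 and 37.5 CPM in Itch KO and 82.9 and 117 CPM in WT, with a log2 fold change of -1.24 (edgeR adjusted p = 0.131, DESeq2 adjusted p = 0.00139).

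Genes that lean toward interferon-gamma had a larger median difference than the 10 members. Of 22 genes, 21 were higher in both Itch KO libraries, against 30.0% of all genes tested. At an unadjusted edgeR p below 0.05, 19 were higher (10.2% of all genes), and DESeq2 called 16 as higher (5.59%). Their median log2 fold change was 1.49. Cxcl9, Cxcl11 and Cxcl10, chemokines for T cells, had the largest log2 fold changes, 3.71, 3.52 and 2.85. Cxcl9 was at 107 and 177 CPM in Itch KO and at 16.6 and 5.22 CPM in WT. Cxcl10, which both types of interferon induce, was at 51.1 and 84.0 CPM in Itch KO and at 13.02 and 5.79 CPM in WT. Irf1, a transcription factor that interferon-gamma induces, had the smallest, 0.38, at 182 and 174 against 151 and 122 CPM. No test of the difference between these genes and the 10 members was made.

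Negative regulators of the pathway had a median of 0.45 over 12 genes, 7 of them higher and 0 lower at an unadjusted p below 0.05. The shares over all genes tested were 10.2% higher and 9.52% lower. Socs1, which blocks JAK kinases, was at 40.2 and 61.5 CPM in Itch KO and at 8.11 and 10.3 CPM in WT (log2 fold change 2.46, edgeR adjusted p = 0.123, DESeq2 adjusted p = 9.99e-07). Socs3 was at 158 and 193 against 70.9 and 83.6 CPM, and Ptpn6, a phosphatase of blood cells, at 108 and 130 against 57.7 and 70.8 CPM. In these 3 genes, named because they had the highest log2 fold changes of the list, the groups did not overlap. Of the 12 genes, 8 were higher in both Itch KO libraries and 2 lower, against 30.0% and 26.0% of all genes tested. Pias1 was at 70.4 and 78.9 CPM in Itch KO and 80.7 and 82.1 CPM in WT, with a log2 fold change of -0.12.

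**Figure D4:**
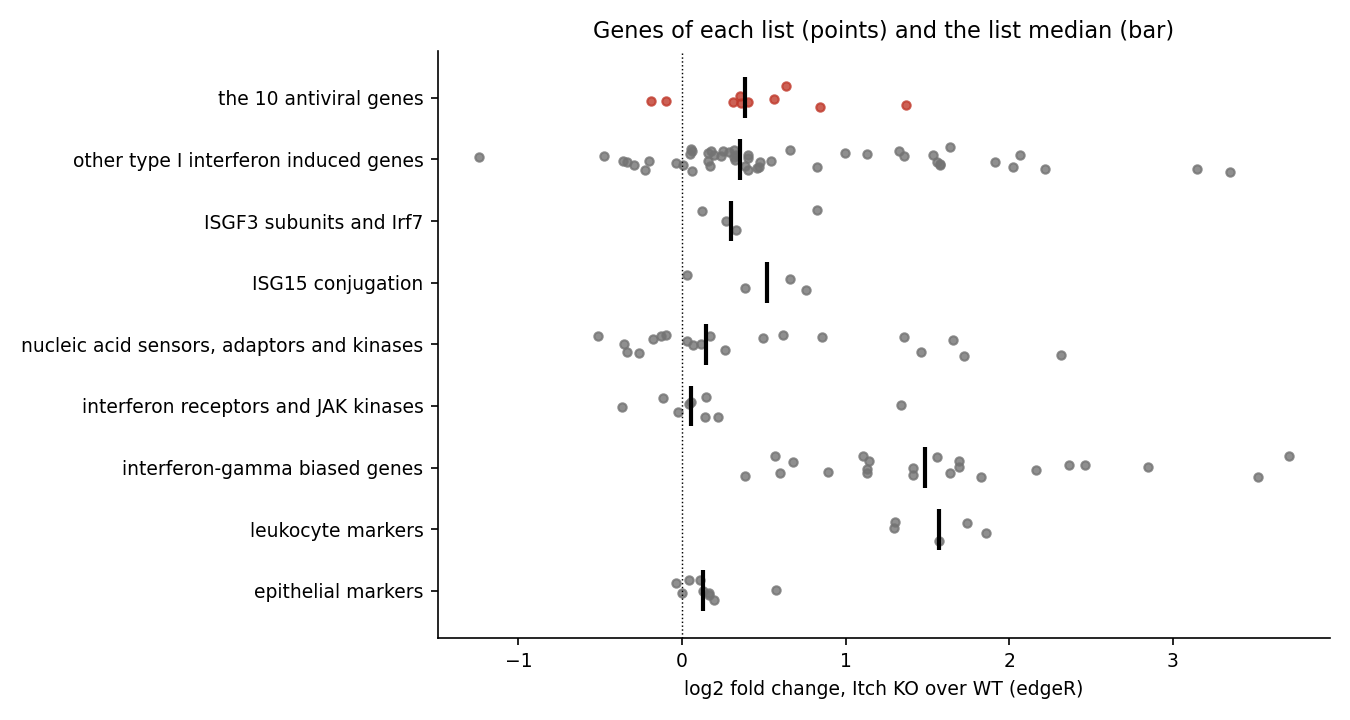
Log2 fold change of Itch KO over WT for each tested gene (points) of 9 lists, with the list median as a bar. The median of the 10 antiviral genes is 0.38, against 0.36 for other type I interferon induced genes, 1.49 for interferon-gamma biased genes, 1.57 for leukocyte markers and 0.13 for epithelial markers.

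Summed levels of immune cell markers were higher in both Itch KO libraries, though not every marker was. Summed CPM of 14 macrophage and monocyte markers was 951 and 1277 in Itch KO and 737 and 593 in WT, that of 10 T cell markers 248 and 342 against 89.9 and 122, and that of 8 B cell markers 715 and 725 against 46.5 and 27.5. The 13 neutrophil markers summed to 572 and 986 CPM in Itch KO and to 268 and 26.2 CPM in WT. The 11 markers of plasmacytoid dendritic cells, the main makers of type I interferon, summed to 658 and 711 against 485 and 473 CPM. Several of these genes are expressed in other cells, and Siglech, the most specific, was at 9.95 and 16.1 against 3.52 and 3.34 CPM. Bst2 is in this list and also among the other type I interferon induced genes, at 55.5 and 63.2 against 31.3 and 28.2 CPM. Both Itch KO libraries lay above both WT libraries for 10 of 14 macrophage and monocyte, 9 of 11 tested neutrophil, 10 of 10 T cell, 8 of 8 B cell and 6 of 11 plasmacytoid dendritic cell markers. The share over all genes tested was 30.0%. Mertk, a macrophage receptor for the uptake of dying cells, went the other way, at 63.0 and 54.3 CPM in Itch KO against 88.9 and 166 CPM in WT (log2 fold change -1.12, edgeR adjusted p = 0.205, DESeq2 adjusted p = 0.0241). The other 3 macrophage markers overlapped between groups. No defining marker of these 5 cell types was at 0 in both libraries of a group. The 9 epithelial markers summed to 1849 and 1434 CPM in Itch KO and to 1617 and 1435 CPM in WT, and the 6 fibroblast markers to 1193 and 1754 against 1542 and 930 CPM. The most abundant marker of each immune list was Csf1r for macrophages (155 and 208 CPM in Itch KO, 89.9 and 61.2 in WT), Csf3r for neutrophils (105 and 187, against 31.4 and 3.75), Lck for T cells (48.7 and 65.1, against 13.7 and 29.99), Cd22 for B cells (133 and 136, against 9.82 and 5.38), Tcf4 for plasmacytoid dendritic cells (142 and 170, against 182 and 123) and Ptprc for leukocytes (199 and 243, against 76.2 and 72.6). All but Tcf4 separated between the groups. Cdh1, an epithelial junction gene, was at 387 and 285 CPM in Itch KO against 376 and 296 in WT, Col3a1, a fibroblast collagen, at 374 and 469 against 438 and 272, and Krt13, a squamous keratin, at 11.3 and 16.7 against 123 and 0.815. The 9 colonocyte markers summed to 1454 and 1006 CPM in Itch KO and to 1792 and 1487 CPM in WT, with Slc26a2, a sulfate transporter, at 323 and 205 against 511 and 450. The part of immune cell number in the levels of the 10 genes was not tested.

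Replicates of 1 group differed by as much as the groups did for several members. Over the 10 genes the median absolute log2 difference between replicates was 0.31 in Itch KO and 0.27 in WT, against 0.28 and 0.25 over all genes tested. In Itch KO the difference ran from 0.03 (Usp18) to 1.72 (Rsad2), and in WT from 0.05 (Oasl2) to 0.68 (Ifit1). Itch KO replicate 2, in which Rsad2, Mx2 and Ifit3 were higher than in replicate 1, also had the higher level of Ifng and the higher sums of the macrophage, neutrophil and T cell markers given above; their part in this was not tested.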

How the data were processed

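The authors deposited raw read counts per gene, 1 file per library. Tools listed, per the submitters' processing notes, include HTSeq 0.6.1, TopHat2, CASAVA 1.8.2 and SAMtools 0.1.19, with mm10 and GRCm38; the sources used here give neither strand setting nor duplicate removal. WT replicate 1 came with 19308 genes and their symbols; the other 3 list 39179 genes plus HTSeq summary lines (reads outside genes 18.2% to 23.0%, ambiguous reads 2.67% to 3.03%), which entered no library size or test. The 19308 shared genes hold 97.3% to 97.7% of the counts of the longer files.

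A two-sided quasi-likelihood test in edgeR 4.0.16 (R 4.3.3) was run on 16956 genes that passed filterByExpr with a minimum count of 10, with TMM scaling, a robust prior, no term besides group, 2 residual degrees of freedom and Benjamini-Hochberg adjustment over all genes tested; a call is an adjusted p below 0.05. Standard errors were derived from each fold change and its F statistic, and 95% intervals from these. DESeq2 1.42.0 and limma voom (limma 3.58.1) were alternatives, beside other scalings, filters, estimators, a replicate block and each library left out. The procedure was run on simulated counts to check the fold changes it returned, and how many true changes it called is not given here. Exonic length is the union of exons in GENCODE M21 (GRCm38), and promoter windows are RefSeq's.

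The 10 genes and the gene lists were chosen with earlier results of these data known, so no p was adjusted over a list and no set test was run. Named genes were the 10 members, Itch, all listed ligands, receptors, ISGF3 subunits, ISG15 enzymes and relatives with counts, the most abundant gene of each marker list, and from the other lists the 3 highest and the lowest by log2 fold change at a mean of at least 5 CPM; others were chosen after their values were seen. Some genes that this rule names are not reported here. The older symbols of Ifit3b and Ifit1bl2 were corrected from RefSeq after the lists were written.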

Additional observations from a re-analysis of the deposited data

Results flagged for a closer look

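Type I and type III interferon ligand genes lie outside the genes listed for WT replicate 1, so they entered no comparison, and they gave a signal in 1 knockout library above that in the available WT library. Of 20 such genes 16 were found in the other 3 files, and 4 of these had any count. Their summed counts in the Itch KO libraries were 2 (replicate 1) and 12 (replicate 2), against 3 in WT replicate 2. Ifnz made up most of the sum, with 2 and 8 counts against 2, while Ifnb1 and Ifnk, at 0 and 2 counts in Itch KO each, had 0 in WT replicate 2, and Ifnl3 had 0 and 0 against 1. The difference was not tested, and with 1 WT library it has no replicate check. The 12 genes listed at 0 in all 3 libraries were not detectable at this depth, where a count of 0 allows up to 3 counts.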

How the results depend on the processing

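edgeR's 0 calls higher and 0 lower held under each edgeR alternative run and limma voom, with DESeq2 giving 925 and 827; 3343 genes had an unadjusted edgeR p below 0.05. Leaving out 1 library moved the count of members with an unadjusted p below 0.05 between 1 and 4 and their median log2 fold change between 0.42 and 0.59. Without 1 library the log2 fold change ran from -0.47 to 0.19 for Ifit1, -0.53 to 0.24 for Ifit3, -0.78 to 0.93 for Rsad2 and -0.14 to 0.73 for Mx2; the other 6 members stayed positive under every alternative run. Other scalings moved the median of all genes by less than 0.1. Usp18's adjusted p ranged from 0.00262 (DESeq2) to 0.421. With the replicate number as a block, edgeR called 0 genes and 4 members had an unadjusted p below 0.05; paired differences correlated at 0.05 across genes, so the numbers were not taken to pair the libraries. With 2 libraries a group, intervals are wide, and a missing call does not show equal levels.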

Other observations

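Not all interferon-induced genes were higher in the knockout. Besides Ddx60, 5 of the 50 other type I interferon induced genes were lower in both Itch KO libraries than in both WT libraries, and they are named here after their values were seen. Samd9l was at 166 and 137 CPM in Itch KO against 185 and 197 CPM in WT, Helz2 at 220 and 189 against 235 and 267, and Znfx1 at 147 and 143 against 164 and 176. Slfn9 was at 52.8 and 38.4 CPM against 61.9 and 65.4, and Tdrd7 at 116 and 99.4 against 130 and 118. None of these 5 had an unadjusted edgeR p below 0.05, and 26.0% of all genes tested separated in that direction. Among the RNA sensors Ifih1, which encodes MDA5, was at 150 and 109 CPM in Itch KO and 167 and 163 CPM in WT, while Zbp1, a sensor of left-handed nucleic acid, was at 168 and 139 against 108 and 61.5 CPM.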
